A study of Mus musculus with 60 samples.

Results

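The major urinary proteins (MUPs) of the mouse are small secreted carrier proteins of the lipocalin family, and the genes examined here are all those whose symbol is Mup followed only by digits. Of 19355 genes in the table of hepatocytes and cultured cells, 21 were members (Mup1 to Mup21), and of 17473 genes in the table of regenerating livers, 20 were members, with Mup4 not listed there. The family was chosen by its large fall in FPKM from freshly isolated hepatocytes to matured cultured cells, so its values in those cells are described here without a test.

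MUPs are made in hepatocytes, released into blood and excreted in urine, where they bind volatile pheromones and act as scent signals themselves. Their transcription in liver is known to be raised by pulsatile growth hormone through STAT5, by androgens and by glucocorticoids, and adult males make far more of them than females. Mup20, also called darcin, is the male-biased member that attracts females, while Mup4 and Mup5 are known mainly from nasal, lacrimal and salivary glands.

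Purified polyadenylated RNA of cells and livers labelled WT and C57BL/6 was sequenced in read pairs, and levels are in FPKM, fragments per kilobase of transcript scaled to the depth of the library. The cell samples formed 11 groups of 3. Hepatocytes were perfused from livers of mice 8 to 10 weeks old and sequenced fresh. IL6-iHPCs are dividing cells with progenitor features, obtained by growing such hepatocytes with interleukin 6 (IL6), EGF, HGF, insulin and dexamethasone. They were taken at day 3 and day 14 of the first culture (P0), at passage 10 (P10) from mouse-1 and mouse-2, at passage 35 (P35) from mouse-1, and at passage 20 (P20) from clone-1, a line grown from 1 hepatocyte. The study describes its single-cell clones as coming from mice that carry Albumin-Cre and a Cre-dependent R26R-tdTomato reporter, alleles that the labels of these libraries do not mention. IL6-iMHs were matured from each of these 4 passaged lines for 7 days in medium with insulin, dexamethasone and oncostatin M. The liver samples formed 6 groups of 3, namely normal liver and liver left to regrow for 6 h, 24 h, 3 days (D3), 7 days (D7) or 14 days (D14) once 2/3 of it had been cut away (partial hepatectomy, PHX).

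Depth on genes was 49.3 to 88.9 M reads per cell sample and 52.1 to 79.3 M per liver sample (M, 1e6), recovered from the deposited values. The 3 cell samples of a group are technical repeats per the study's legend, and the labels do not say whether the 3 livers of a group came from separate mice, so p-values cover only the spread between these samples. Y-linked Ddx3y, Eif2s3y, Kdm5d and Uty summed to 5.46 to 7.21 FPKM in hepatocytes, 70.5 to 81.4 and 53.4 to 62.3 in IL6-iHPCs at D3 and D14, 33.9 to 38.7 in IL6-iHPCs-clone-1 and 17.2 to 79.0 in livers. All 4 were at 0 in every IL6-iMH library, those of clone-1 included, and in the mouse-1 and mouse-2 IL6-iHPCs at P10. The libraries labelled clone-1 therefore disagree on this before and after maturation, and sex or donor cannot be told apart from culture in any comparison between Y-positive and Y-negative groups.

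All members lie side by side on chromosome 4 (GRCm38), from Mup4 (59956804 to 59960710) to Mup21 (62147932 to 62150863), and 20 of 21 are on the minus strand, Mup6 being the exception. By coding sequence they fell into a set of 15 near-identical genes (Mup1, Mup2 and Mup7 to Mup19) and 6 that stand apart (Mup3, Mup4, Mup5, Mup6, Mup20 and Mup21). Each of the 15 differed from its closest relative by 1 to 4 coding bases (99.3 to 99.8% identity) and shared 39.8 to 99.1% of its 150-base transcript stretches with another member. The 6 others differed from their closest relative by 28 to 46 bases (91.6 to 95.0% identity) and shared none of these stretches. Reads from the 15 can be placed on the wrong copy, so single values of that set are uncertain. The family sum depends little on how reads were shared among members, and Mup3, Mup20 and Mup21 share no such stretch with another member. A further locus of the cluster, Mup22, is listed under another symbol (Gm21320) and was outside the rule, so the family sum leaves it out. It was at 1694 to 5203 FPKM in normal liver, 18.7 to 2095 at D3 and 184 to 2307 at D7. How reads were divided between this locus and the members was not tested, nor was a sum that includes it.

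The sequences below illustrate how reads can tell the sets apart, in a stretch chosen for the most differences between Mup20 and Mup7. They are 60 coding bases from exon 2 of 3 abundant members of the near-identical set and of Mup20, Mup3 and Mup21, read 5′ to 3′ on the minus strand, with capitals where a base differs from Mup7. Mup12 and Mup17 differed from Mup7 at 1 and 3 positions, Mup20 at 12, and Mup3 and Mup21 at 14. Mup3 and Mup21 were alike at every base of this stretch. Over the whole coding sequence Mup20 differed from Mup7 by 54 bases (90.1% identity).
Mup7 (coding bases 127 to 186, chr4:60069777-60069836): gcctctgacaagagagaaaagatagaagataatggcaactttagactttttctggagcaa
Mup12 (chr4:60740692-60740751): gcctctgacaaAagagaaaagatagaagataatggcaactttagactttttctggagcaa
Mup17 (chr4:61595237-61595296): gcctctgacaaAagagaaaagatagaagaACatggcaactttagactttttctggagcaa
Mup20 (chr4:62053524-62053583): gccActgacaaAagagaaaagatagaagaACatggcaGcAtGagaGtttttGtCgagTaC
Mup3 (chr4:62086844-62086903): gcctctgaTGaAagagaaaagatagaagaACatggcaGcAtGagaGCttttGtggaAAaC
Mup21 (chr4:62150239-62150298): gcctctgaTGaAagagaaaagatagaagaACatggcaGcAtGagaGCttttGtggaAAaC

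Sequence before the annotated start was at hand for 14 of 21 members (RefSeq, GRCm38.p6). A motif chosen after the sequences had been read, TATATAA, occurred on either strand within the 250 bases before the start in 11 of these 14 and in 998 of 32851 promoters (3.04%). The 57 bases that end in this motif (capitals) are shown for Mup17, of the near-identical set, and for Mup3 and Mup21, which had reads in every matured library. Mup20 also had reads in every matured library, but it was not among the 14 members with such sequence at hand.
Mup17 (chr4:61595851-61595907, minus strand): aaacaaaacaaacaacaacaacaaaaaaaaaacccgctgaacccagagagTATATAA
Mup3 (chr4:62087322-62087378, minus strand): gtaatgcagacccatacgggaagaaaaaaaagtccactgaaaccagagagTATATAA
Mup21 (chr4:62150843-62150899, minus strand): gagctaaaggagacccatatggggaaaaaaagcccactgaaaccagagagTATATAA

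In fresh hepatocytes the family summed to 18948, 19181 and 22436 FPKM, which was 1.75 to 2.07% of all reads on genes. Mup3, a liver MUP of the divergent set, was the highest at 7229, 7215 and 8049.7 FPKM and ranked ninth of all genes by mean level. Mup7 followed at 5182, 5708 and 6542, Mup12 at 2870.0, 2579 and 4005, and Mup20 at 2002, 2150.2 and 2467. In this order no member overlapped the next, and the gap was narrowest between Mup12 and Mup20. The FPKM scale is per length, so these levels can be set side by side. Mup21 was at 164, 170.1 and 183 FPKM and Mup17 at 114, 39.8 and 99.8. The other 15 members ranged from Mup4, at 0 in all 3 libraries, through Mup6 at 0.211 to 0.451 to Mup16 at 66.5 to 478. The 15 near-identical genes together made up 50.2 to 52.3% of the family sum.

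**Figure D1:**
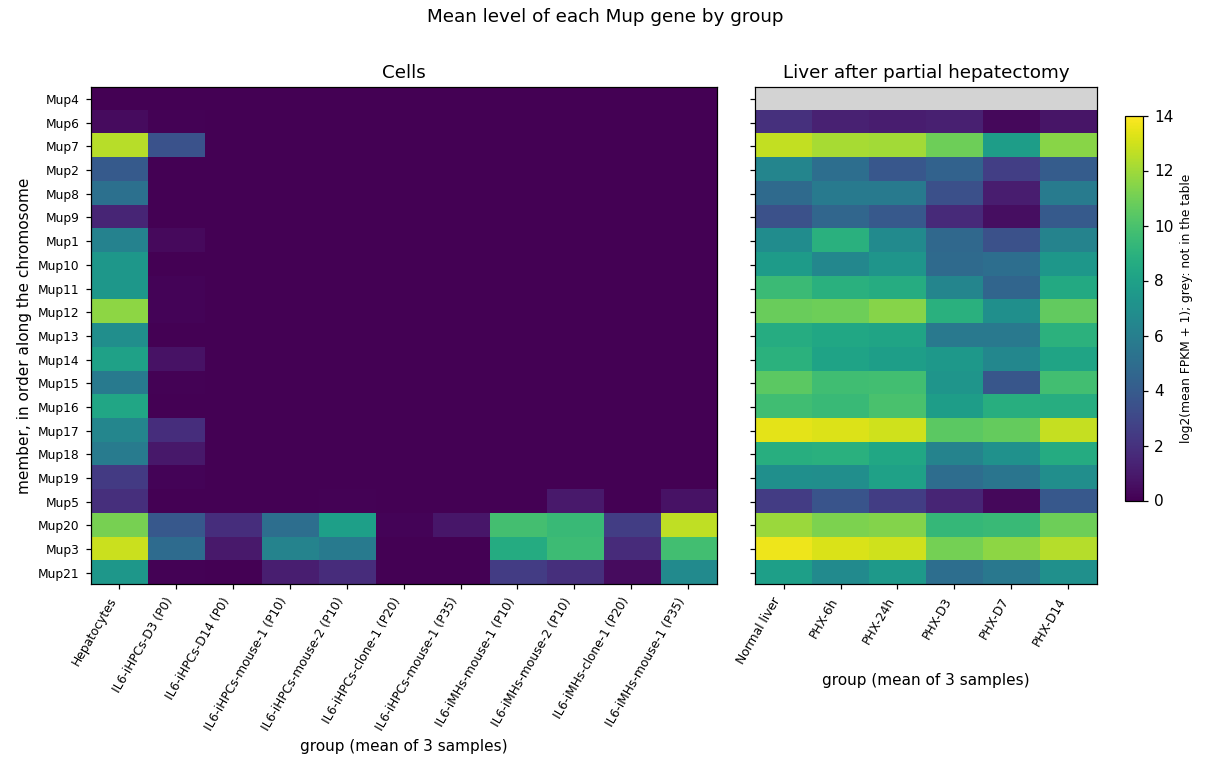
Mean level of each member in every group (color, log2 of mean FPKM plus 1, n = 3), with genes in chromosome order from top to bottom, cells on the left and livers on the right, and grey where a gene is not in the table. In matured cells color remains almost only in the bottom rows, Mup20, Mup3 and Mup21, while every liver group shows color in the near-identical set as well.

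In matured cells the family was reduced to 3 members, while the near-identical set was all but undetected at this depth. Over the 12 IL6-iMH libraries, Mup20 collected 1215123 reads, Mup3 363293 and Mup21 15130, each with reads in 12 of 12 libraries. The 15 near-identical genes together collected 0 to 5 reads in a library, and 11 of them had no read in any. In hepatocytes the same 15 genes had received 621971 to 720138 reads per library. Mup7 was therefore at least 108028-fold lower in IL6-iMHs of mouse-1 at P35 than in hepatocytes, and Mup12 at least 50967-fold lower, taking 3 reads per library as the floor for a count of 0. Counting error alone is covered by this floor. Among the remaining divergent genes, Mup5 had reads in 7 of 12 libraries (at most 159), and Mup4 and Mup6 had 1 and 2 reads in all.

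Mup20, Mup3 and Mup21 are the last 3 genes of the cluster, next to one another. Mup20 was at 6475, 7215 and 5946 FPKM in IL6-iMHs of mouse-1 at P35, at 990.2, 741 and 975 in mouse-1 at P10, at 752, 809 and 612 in mouse-2 at P10, and at 3.82, 4.32 and 6.50 in clone-1 at P20. Its mean at P35 was 2.97 times that of hepatocytes, and the 3 values lay above all 3 hepatocyte values, whereas the other lines lay below. Mup3 was at 886, 968 and 746 FPKM at P35, 382, 321 and 483 in mouse-1 at P10, 700.1, 662 and 921 in mouse-2, and 2.01, 2.89 and 2.03 in clone-1. No matured library reached the hepatocyte level of Mup3, the line means being 11.6%, 5.27%, 10.2% and 0.0308% of it. Mup21 was at 95.4, 110.2 and 106 FPKM at P35 and at 4.13, 4.41 and 5.03 in mouse-1 at P10. In mouse-2 it was at 2.90, 2.67 and 2.39 and in clone-1 at 0.352, 0.286 and 0.322, and the P35 libraries were the nearest to hepatocytes, at 60.3% of their mean.

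The family sum of IL6-iMHs was thus 37.2% of the hepatocyte mean at P35, 6.45% in mouse-1 at P10, 7.38% in mouse-2 and 0.0372% in clone-1. Mup20 alone was the larger part of it at P35, in mouse-1 at P10 and in clone-1, whereas in mouse-2 Mup3 (mean 761 FPKM) and Mup20 (725) overlapped. Albumin, the main secreted product of hepatocytes, did not follow this order: Alb averaged 50010 FPKM in hepatocytes and 53442 to 62143 in the 4 matured lines, clone-1 included. The 8 hepatocyte markers summed to 60592 to 82459 FPKM in matured libraries, 76082 to 81598 in hepatocytes and 665 to 9640 in IL6-iHPCs. The 5 biliary markers summed to 200.05 to 1408 FPKM in matured libraries against 3.84 to 3.94 in hepatocytes. The part of either in the Mup levels was not tested.

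**Figure D2:**
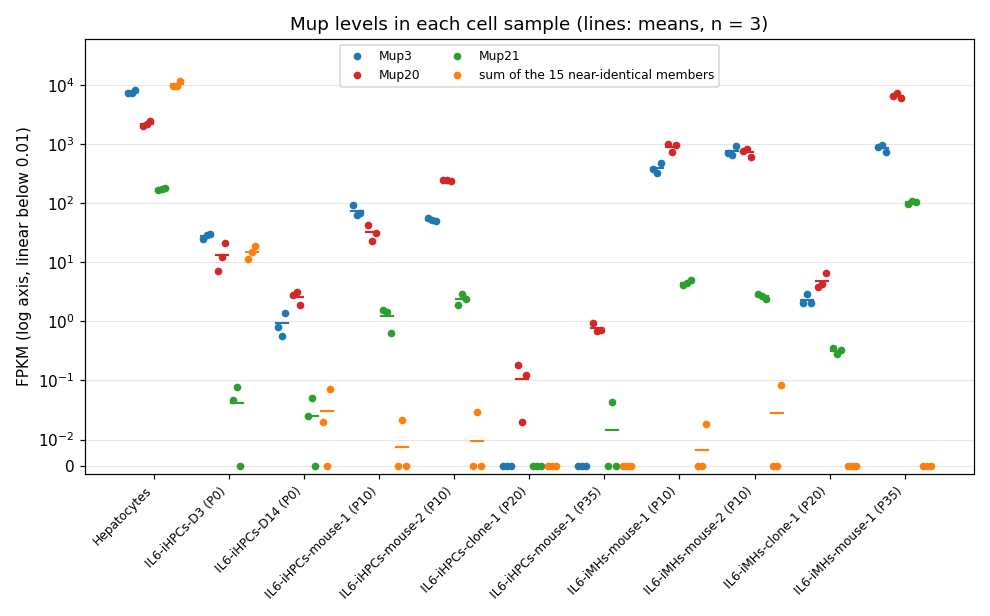
FPKM of Mup3, Mup20, Mup21 and the sum of the 15 near-identical genes in each cell sample (points) with group means (lines, n = 3), on an axis that is logarithmic above 0.01 and linear below. The near-identical genes fall from 9553 to 11736 in hepatocytes to 0.0854 or less in all matured and passaged libraries, whereas Mup20 spans 3.82 to 7215 across matured libraries.

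Other genes that differ between male and female liver were measured in the same cells and differed among themselves (the genes named here were chosen after their values were seen, and no test was run). Hepatocytes had Y-linked RNA and no matured library did. Sex or donor therefore cannot be told apart from culture in these comparisons, nor in those of the Mup genes above. Hsd3b5, a steroid dehydrogenase, and Elovl3, a fatty acid elongase, both male-biased, averaged 284 and 254 FPKM in hepatocytes and were at 0 in all 12 matured libraries. Male-biased Cyp4a12a, a fatty acid hydroxylase, averaged 181 in hepatocytes and 149 to 187 in the matured mouse-1 and mouse-2 lines, with 27.0 in clone-1. The 15 male-biased genes of the list summed to 19325 to 21030 FPKM in hepatocytes and to 1328 to 3432 in the matured libraries. The 17 female-biased genes summed to 1.86 to 2.37 FPKM in hepatocytes, 226 to 422 in the matured mouse-1 and mouse-2 libraries and 10.4 to 13.0 in matured clone-1. Of these 17, 4 to 5 were at 0 throughout each matured mouse-1 or mouse-2 group, 8 in matured clone-1 and 2 in hepatocytes. Ghr, the growth hormone receptor, averaged 105 in hepatocytes and 10.5 to 36.5 in the matured lines, and Igf1, its secreted target, 60.5 against 0.937 to 4.36. Igfals (113 against 2.09 to 10.9), the STAT5 targets Cish (13.4 against 0.223 to 0.9903) and Socs2 (8.15 against 0.458 to 2.07), and Stat5b (13.7 against 7.26 to 10.4) were also lower in all 4 lines by mean. Jak2 (0.679 against 1.72 to 14.3), Stat5a (1.95 against 2.78 to 4.09), Bcl6 (1.49 against 4.82 to 14.1) and Igfbp3 (0.0319 against 1.68 to 274, the highest in clone-1) were higher, and Cux2 averaged 0.0299 or less in hepatocytes and matured lines. Among factors known to act at Mup genes, Cebpa averaged 274 FPKM in hepatocytes and 47.3 to 81.0 in the 4 matured lines. Hnf4a (140.3 against 178 to 276), the glucocorticoid receptor gene Nr3c1 (3.01 against 4.31 to 11.1) and the zinc-finger and homeobox gene Zhx2 (2.70 against 3.46 to 4.14) were not lower.

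Between the cultured groups the family sum differed by more than the spread between repeats at every step compared, in limma fits over 12310 features with the members replaced by their sum. At D3 the sums were 43.9, 56.5 and 70.3 FPKM and at D14 they were 3.69, 3.69 and 3.39, a log2 difference of -3.63 ± 0.14 (SE, adjusted p = 3.38e-19). In passaged mouse-1 cells at P10 the sums were 137, 87.5 and 99.9, higher than at D14 by 4.55 ± 0.14 (adjusted p = 7.15e-22). At P35 they were 0.9805, 0.782 and 0.722, lower than at P10 by a log2 difference of -5.88 ± 0.14 (adjusted p = 6.15e-25). The groups overlapped at none of these steps. The P0 cells had Y-linked RNA and the mouse-1 cells had none, so for the step from D14 to P10 donor and time in culture cannot be told apart. The mouse-2 cells at P10 held 303, 297 and 291 FPKM, above mouse-1 at P10 by 1.47 ± 0.14 (adjusted p = 8.11e-10), and clone-1 held 0.182, 0.0196 and 0.123, below it by -6.60 ± 0.14 (adjusted p = 5.34e-26). The exact two-sided permutation p was 0.1 for each of these comparisons, the smallest that 3 against 3 allows. Clone-1 at P20 had Y-linked RNA and mouse-1 at P10 had none. Between these lines, donor, passage and growth from a single cell cannot be told apart.

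The members behind these steps also differed. At D3 the near-identical set still gave 11.4, 15.2 and 18.8 FPKM, 26.0 to 26.9% of the sum, led by Mup7 at 6.72, 9.33 and 14.9. Mup3 was at 25.1, 29.0 and 30.5 at D3 and at 0.804, 0.557 and 1.41 at D14, a log2 difference of -3.94 ± 0.15 (adjusted p = 2.06e-19). Mup3, Mup7, Mup17 and Mup20 fell from D3 to D14, where 5.05% of 12328 genes fell. The filter (at least 1 FPKM in 3 samples of the whole table) was passed by 19 members, 15 of which averaged under 1 FPKM at both D3 and D14 and passed through other groups. Mup4 and Mup6 did not pass the filter. The median log2 difference over all genes was -0.16 from D3 to D14, -0.27 from D14 to mouse-1 at P10, 0.36 from P10 to P35, 0.05 from mouse-1 to mouse-2 and 0.28 from mouse-1 to clone-1.

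From D14 to mouse-1 at P10, Mup3, Mup20 and Mup21 rose and no other member did (5.17% of genes rose). Mup20 was at 2.84, 3.08 and 1.91 at D14, at 42.4, 22.6 and 30.7 in mouse-1 at P10 and at 246, 242 and 238 in mouse-2 at P10. The same 3 members fell from P10 to P35 (8.94% of genes fell) and were lower in clone-1 than in mouse-1 at P10 (7.45% of genes were lower). Between mouse-2 and mouse-1 only Mup20 was called higher (2.22% of genes), by 2.93 ± 0.23 (adjusted p = 8.89e-12), and Mup3 was at 55.4, 51.9 and 49.9 in mouse-2 against 93.1, 63.4 and 68.6 in mouse-1. By their labels, passaged lines with hardly any Mup20 differed widely in it after maturation. Mouse-1 at P35 had 0.944, 0.694 and 0.722 FPKM before and the highest levels after maturation. Clone-1 had 0.182, 0.0196 and 0.123 before and the lowest levels after. The clone-1 libraries held 33.9 to 38.7 FPKM of Y-linked RNA before maturation and 0 after it. Whether they come from a single line therefore cannot be told.

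**Figure D3:**
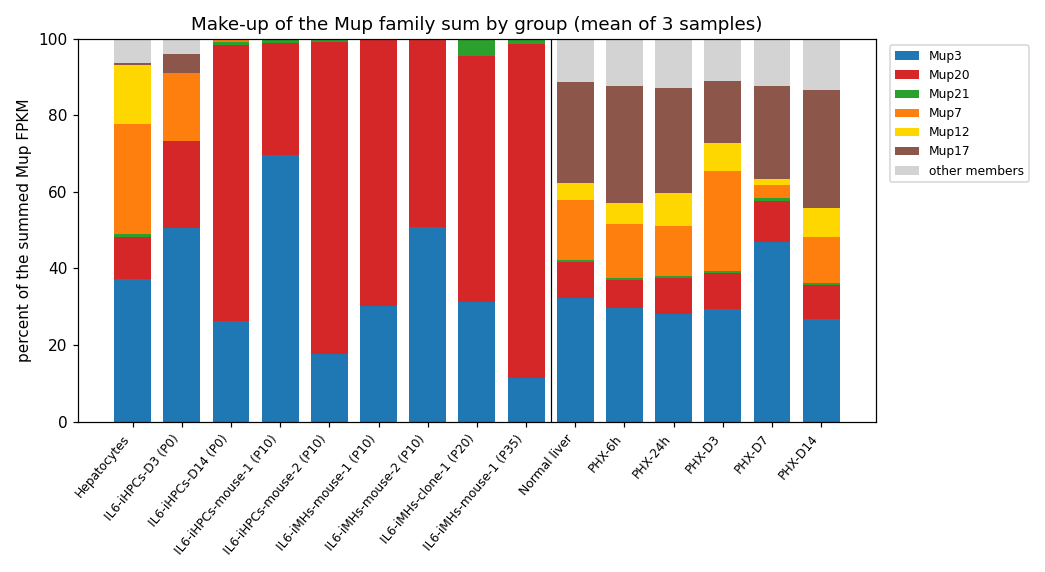
Percent of the summed Mup FPKM given by Mup3, Mup20, Mup21, Mup7, Mup12 and Mup17 and by all other members (stacked bars, means of 3 samples), for cells to the left of the line and livers to its right. IL6-iHPCs-clone-1 and IL6-iHPCs-mouse-1 (P35), with family sums under 1 FPKM, are left out. Mup3, Mup20 and Mup21 make up nearly the whole bar in passaged and matured cells, while in livers Mup17, Mup7 and other members of the near-identical set take a large share.

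In normal liver the family was still more abundant than in isolated hepatocytes, with sums of 52765, 39825 and 32525 FPKM and 2.95 to 4.85% of reads, though the 2 tables were not fitted together. Mup3 (13236, 14397 and 11491 FPKM) and Mup17 (14365, 11232 and 7817) ranked 3 and 4 of all genes by mean level. Mup17 is a near-identical member that had only 39.8 to 114 FPKM in the isolated hepatocytes, while Mup12, at 2579 to 4005 FPKM in hepatocytes, was at 1270.3 to 2212 in normal liver. How reads were divided among near-identical copies in each table was not tested.

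The regenerating liver lost most of its Mup RNA by D3, held that low level at D7 and had regained part of it at D14. The family sums were 29228, 35705 and 31356 FPKM at 6 h and 31334, 37721 and 20559 at 24 h, both overlapping normal liver. They were 11697, 2794 and 8019 at D3 and 8690.3, 5369.6 and 6251 at D7, all below the lowest normal liver. At D14 they were 22027, 31285 and 13637, still below all 3 normal livers but above all 3 livers of D7. In a limma fit over 11095 features the log2 difference from normal liver was -2.68 ± 0.44 at D3 (SE, adjusted p = 7.47e-04) and -2.62 ± 0.44 at D7 (adjusted p = 3.73e-04), the means being 0.180 and 0.162 of normal. It was -0.35 ± 0.44 at 6 h (adjusted p = 0.521), -0.50 ± 0.44 at 24 h (adjusted p = 0.411) and -0.95 ± 0.44 at D14 (adjusted p = 0.163), where the mean was 0.535 of normal. The exact permutation p was 0.2 at 6 h and 24 h and 0.1, its smallest possible value, at the 3 later times. With quantile normalization the log2 difference was -1.56 at D3 (adjusted p = 0.0354) and -1.62 at D7 (adjusted p = 0.0266). In bulk tissue, fewer cells of a type and less RNA per cell cannot be told apart from the level of a gene alone. Of 8 hepatocyte markers 0 were called at D3 or D7, with median log2 differences of -0.27 and -0.30, and their sum was 37222 to 69419.9 FPKM at D3 and 40254 to 46814 at D7 against 54485 to 58285 in normal liver.

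Between neighbouring times, the sum fell from 24 h to D3 (log2 difference -2.18 ± 0.44, adjusted p = 0.00321) and rose from D7 to D14 (1.67 ± 0.44, adjusted p = 0.0107), a 3.30-fold rise in mean. The differences from 6 h to 24 h (-0.14, adjusted p = 0.826) and from D3 to D7 (0.05, adjusted p = 0.941) did not pass. The rise from D7 to D14 did not pass without the second D14 liver (adjusted p = 0.0613), the liver with the highest sum of its group. With no filter on low values neither step passed (adjusted p = 0.0520 from 24 h to D3 and 0.108 from D7 to D14).

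**Figure D4:**
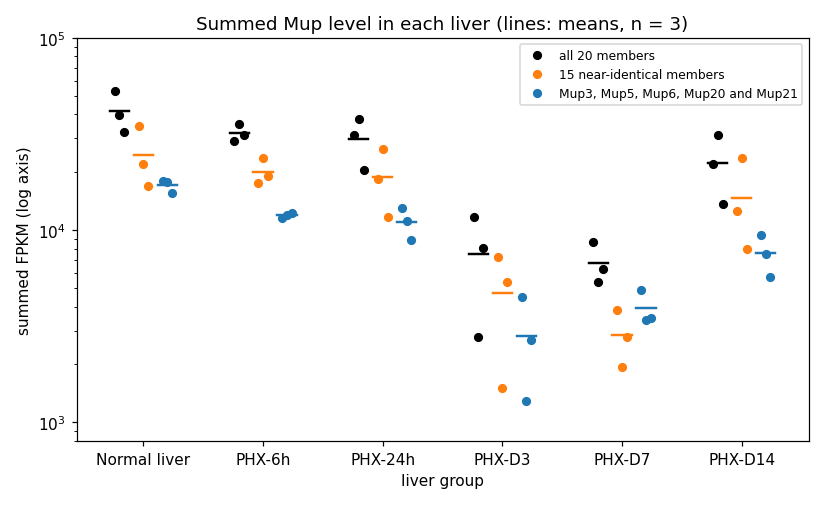
Summed FPKM in each liver (points, logarithmic axis) for all 20 members, for the 15 near-identical members and for Mup3, Mup5, Mup6, Mup20 and Mup21, with group means (lines, n = 3). The sums at D3 (2794 to 11697) and D7 (5369.6 to 8690.3) lie below those of normal liver (32525 to 52765), and the D14 sums lie between.

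Member by member, all 20 genes of the liver table passed the filter. At D3, 15 of 20 were lower than in normal liver and 0 higher (of all 11114 genes, 2.49% were lower and 3.33% higher), with a median log2 difference of -2.64 over the members against 0.01 over all genes. At D7, again 15 of 20 were lower and 0 higher (1.03% and 7.81% of genes), with a median of -2.78 against 0.13. The count at D3 was 8 without the first normal liver, 9 without the third and 8 without the second D3 liver. At an unadjusted p under 0.05, 1, 2, 18, 17 and 5 members differed from normal liver at the 5 times in order. The share of all genes at that threshold was not counted, so these counts have no background beside them. With limma voom on the recovered reads, 1, 1, 15, 14 and 1 members were called, where 3022, 1389, 1082, 1556 and 755 of all 11114 genes were called. Of the genes called at D7, 11.6% were lower, and 26.2% after quantile normalization, which called 15 members.

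Mup3 and Mup20 were the abundant divergent members of liver. Mup3 was at 13236, 14397 and 11491 FPKM in normal liver, 3435, 950.5 and 2001 at D3, 3871, 2691 and 2890.1 at D7 and 7066, 4974 and 4423 at D14. These 4 groups of Mup3 values did not overlap except for D3 and D7, and the log2 difference from normal was -2.80 ± 0.35 at D3 (adjusted p = 1.23e-04), -2.06 ± 0.35 at D7 (adjusted p = 3.76e-04) and -1.27 ± 0.35 at D14 (adjusted p = 0.0208). The call at D14 was lost without the first or second normal liver or liver 2 or liver 3 of D14 (adjusted p 0.0538 to 0.0886), and with no filter on low values (0.0771). Mup20, darcin, was at 4449, 3194 and 3876 in normal liver, 959, 334 and 655 at D3, 933, 687 and 545 at D7 and 2214, 2409.7 and 1187 at D14. Its differences were -2.68 ± 0.36 at D3 (adjusted p = 1.96e-04), -2.43 ± 0.36 at D7 (adjusted p = 9.44e-05) and -1.04 ± 0.36 at D14 (adjusted p = 0.0568).

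Mup21 was at 300.5, 246 and 173 FPKM in normal liver, 71.0, 2.58 and 22.1 at D3 and 63.96, 41.0 and 39.2 at D7. It was lower by -3.70 ± 0.73 at D3 (adjusted p = 0.00235) and by -2.30 ± 0.73 at D7 (adjusted p = 0.0277). Without the second D3 liver the D3 difference was -2.53, without the first it was -4.69, and the D7 call was lost without the first or second normal liver or liver 2 or liver 3 of D7. The low members Mup5 (0.675 to 10.9 FPKM in normal liver) and Mup6 (2.29 to 3.90) were not called at D3, and Mup6 was lower at D7 (-1.61 ± 0.37, adjusted p = 0.00437).

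Within the near-identical set the log2 differences at D7 reached -6.07 for Mup15 and -4.97 for Mup7, the second most abundant of the set in normal liver. Mup7 was at 9756, 6285 and 4174 FPKM in normal liver, 3587, 915 and 1250.2 at D3 and 168, 136 and 359 at D7, with log2 differences of -1.99 ± 0.65 (adjusted p = 0.0334) and -4.97 ± 0.65 (adjusted p = 3.49e-05). The call at D3 was lost without the first or second normal liver or liver 2 or liver 3 of D3. It fell again from D3 to D7 (-2.98 ± 0.65, adjusted p = 0.00281), as did Mup11 and Mup15, while 1.31% of genes fell. Mup17 was at 14365, 11232 and 7817 in normal liver, 1566, 42.8 and 2661 at D3 and 2299, 961 and 1756 at D7, a difference of -4.25 ± 1.02 at D3 (adjusted p = 0.00717) and of -2.78 ± 1.02 at D7 (adjusted p = 0.0518). Without the second D3 liver the D3 difference was -2.40, and without D3 liver 3 it was -5.37. Mup17 thus varied 62.1-fold among the 3 livers of D3, in which the family sum varied 4.19-fold. Mup12 ranged from 182 to 4410.5 FPKM among the 3 livers at 6 h and was called lower only at D7 (-4.74 ± 1.12, adjusted p = 0.00485), at 270.1, 88.5 and 10.7 FPKM.

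The share of the 15 near-identical genes in the family sum was 65.9, 55.2 and 52.2% in the normal livers, 61.8, 53.9 and 66.5% at D3 and 44.0, 36.3 and 44.4% at D7. The D7 livers were lower than all normal and D3 livers in this share, while D14 was at 57.0, 75.9 and 58.4%. This order leaves out Gm21320 (Mup22), a locus of the cluster outside the rule. It was at 2307 FPKM in the second D7 liver, where the 15 genes summed to 1950, and at 18.7 in the second D3 liver. Were it counted with the set, the second D7 liver would not lie below the second D3 liver. At D7 the set's median log2 difference from normal was -3.14 over 15 genes, against -2.06 over the 5 divergent genes, and at D3 the medians were -2.61 and -2.68. From 24 h to D3, 12 of 20 members fell (1.65% of genes), 9 of them near-identical. From D7 to D14, 9 of 20 rose (0.441% of genes), namely Mup20 and 8 of the near-identical set, among them Mup7, from 168, 136 and 359 to 2713, 4789 and 1201 FPKM.

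At the early times few members were called. At 6 h, 0 of 20 were lower and 1 was higher (11.5% and 4.78% of genes), namely Mup1 at 1068, 140 and 226 FPKM against 113, 101 and 125 in normal liver, a difference of 1.52 ± 0.59 (adjusted p = 0.0410) that was lost without the first 6 h liver or any 1 of the normal livers. The median over all genes was itself -0.28 at 6 h, and it became 0.01 with median-ratio scaling, under which the lower share of all calls went from 70.7% to 45.1%. At 24 h, Mup2 alone was lower and 0 members were higher (4.16% and 3.74% of genes), at 6.98, 30.4 and 1.25 FPKM against 45.9, 154 and 44.4 (-3.07 ± 1.09, adjusted p = 0.0420), a call lost without the third 24 h liver or any 1 of the normal livers. At D14, Mup3 and Mup6 were lower and 0 members higher (2.00% and 0.981% of genes), and the lower share of calls was 67.1%, or 47.0% with median-ratio scaling, under which 0 members passed.

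Genes around the family were examined in the same fit from lists chosen with earlier results known. Of 14 tested male-biased liver genes, 5 were lower at 6 h, 7 at 24 h, 9 at D3, 4 at D7 and 0 at D14, and 0 were higher at any of these times. Of all genes 11.5%, 4.16%, 2.49%, 1.03% and 2.00% were lower at these times. The median log2 differences of this list were -0.99, -1.53, -2.43, -1.52 and -0.30. At D3 the fallen genes included Hsd3b5, from a mean of 267 to 9.22 FPKM (-5.50 ± 1.09, adjusted p = 0.00241), and Elovl3, from 160 to 15.9 (-3.52 ± 0.55, adjusted p = 5.00e-04). At 24 h the largest falls of the list were those of Hsd3b5 (-5.77) and Selenbp2, a selenium-binding protein gene (-3.87). Unlike the Mup sum, which did not pass at 6 h or 24 h, 7 male-biased genes had already passed at 24 h, but the difference in timing was not tested.

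Of 17 female-biased genes with values in liver, 6 passed the filter of at least 1 FPKM in 3 samples. Of these 6, 3 were higher at 6 h, 24 h and D3, 1 at D7 and 0 at D14. Of all genes 4.78%, 3.74%, 3.33%, 7.81% and 0.981% were higher from 6 h on. At 24 h the largest rises were Sult1e1, an estrogen sulfotransferase (from 0.0142 to 6.17 FPKM, 2.46 ± 0.86, adjusted p = 0.0385), and Acot3, an acyl-CoA thioesterase (from 0.554 to 3.78, 1.52 ± 0.50, adjusted p = 0.0294). Both averaged under 1 FPKM in normal liver and passed the filter through livers after PHX. The count out of 6 therefore favours genes that rose. A list of other lipocalins also held Fabp1 and Crabp1, intracellular carriers that are not lipocalins. Of its 11 tested genes, 4 were higher at 24 h and 0 lower (3.74% and 4.16% of all genes). Lcn2, an acute-phase lipocalin that binds bacterial siderophores, averaged 5.34 FPKM in normal liver and 4175 at 24 h (9.34 ± 0.71, adjusted p = 1.48e-06), and Orm2, an acute-phase orosomucoid, 17.8 and 489 (4.75 ± 0.70, adjusted p = 2.45e-04). At D3, 4 of 11 tested genes of this list were higher and 2 lower (3.33% and 2.49% of all genes). The lower ones were the carrier Fabp1 and C8g.

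In the growth hormone axis no gene was called at D3 or 24 h among 10 tested. At D3 the log2 differences were -1.15 for the receptor Ghr (adjusted p = 0.0707), -1.16 for Igfals, the carrier subunit of IGF1 (adjusted p = 0.135), -0.95 for the repressor Bcl6 and -0.28 for Igfbp3. They were -0.21 for Stat5b, -0.10 for Igf1, -0.08 for Stat5a, 0.25 for Jak2, 0.43 for Cish and 0.51 for Socs2, and Cux2 was under the filter. Other times brought single calls. Stat5b (-1.07) and Igfals (-2.63) were lower at 6 h, Bcl6 was lower at D7 (-1.76, adjusted p = 0.0136) and Cish was higher at D14 (1.99).

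Among 12 genes for factors known to act at Mup promoters or to set their level, only Cebpa was lower at D3, from 217 to 109 FPKM (-1.16 ± 0.35, adjusted p = 0.0229). It had already been lower at 6 h (42.7 FPKM, -2.37) and 24 h (104 FPKM, -1.08), and it was at 179 FPKM at D7 (-0.27, adjusted p = 0.613). The part of these factors in the Mup levels was not tested. Cebpb was higher at 6 h (1.91), 24 h (1.18), D7 (1.76) and D14 (1.37), Ppargc1a at 24 h (1.02), and Foxa2 lower at 6 h (-1.26). At D3 the log2 differences were 0.83 for Nr1i2, 0.63 for Hnf4a, 0.83 for Cebpb, 0.70 for Ppargc1a, 0.38 for Ppara, 1.27 for Onecut1 and 0.28 for Foxa1. They were 0.13 for Zhx2, -0.10 for Nr3c1 and -0.23 for Foxa2, none of these past both thresholds.

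Markers of other liver cells moved at some of these times. At 6 h, 4 of 6 Kupffer cell, 3 of 6 endothelial and 1 of 5 red cell markers were lower (11.5% of all genes). Higher at 6 h were 1 of 8 hepatocyte, 1 endothelial and 1 of 5 biliary markers (4.78%). At 24 h, 2 hepatocyte, 2 Kupffer cell, 1 endothelial and 1 red cell markers were lower (4.16%). Of the Kupffer cell and endothelial markers, 1 each was higher at 24 h (3.74%). Of 6 Kupffer cell markers, 6 were higher at D7 (sum 384 to 549 against 77.7 to 118 FPKM), and of 5 red cell markers, 4 were higher (238 to 310 against 87.4 to 150). Of 6 endothelial and 6 stellate cell markers, 2 and 1 were higher at D7, where 7.81% of all genes were higher. At D3, 1 Kupffer cell marker, Marco, was higher, and of the red cell markers 1 was higher and 1 lower (3.33% and 2.49% of genes). At D14, 2 Kupffer cell markers and 1 stellate cell marker were lower (2.00% of genes). At D14, 3 of 4 Y-linked genes were lower, with sums of 17.2 to 20.95 FPKM against 46.2 to 66.7 in normal liver, and none was at 0 in any liver. Their part in the Mup levels was not tested.

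The genes whose log2 level ran most like the family sum across the 18 livers were Fabp1, a fatty acid carrier (r = 0.857), Hbs1l (0.836), the male-biased hydroxylase gene Cyp7b1 (0.820), Uqcrh (0.805) and Ephx2 (0.805). Across the 33 cell samples they were Mat1a, the liver methionine adenosyltransferase (0.967), Alad (0.966), Dhrs3 (0.956), Adck3 (0.949) and Gpr155 (0.939). These correlations describe points that share groups and libraries.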

How the data were processed

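RNA was measured in 33 cell and 18 liver samples. The authors deposited 1 table of FPKM for each. Per the submitters' processing notes TopHat 1.4.1, Cufflinks 1.3.0 and mm10 were used, in roles not given there. A table of day 7 cells was not used. All 100% of FPKM values came out as whole reads (within 0.05), and depth is the sum of these reads.

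The members and the gene lists were chosen with earlier results of these data known. FPKM were tested as log2(FPKM + 1) with limma 3.58.1 (R 4.3.3; trend, all groups of a table in 1 fit, genes with at least 1 FPKM in 3 samples), so fold changes of low genes are understated. Genes with a Benjamini-Hochberg adjusted p under 0.05 and at least a 2-fold change were called. For the family sum, members were replaced by 1 summed feature, and an exact two-sided permutation test was added. Comparisons with hepatocytes or matured cells were not tested. The floor for a count of 0 was 3 reads per library.

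Named genes were all members, the 5 genes most correlated with the family sum in each table, all genes of the growth hormone and regulator lists and, from the other lists, the 2 largest rises and falls past the threshold at 24 h. Other genes named were chosen after their values were seen. Some genes of these lists are not reported here, but stay in the counts. Loci and transcripts came from GENCODE M21 (GRCm38) and promoters from RefSeq (GRCm38.p6). The fit was tested on simulated data.

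Alternatives were other pseudocounts, filters, scalings and fold thresholds, a replicate block, leaving out each sample, and limma voom on the recovered reads, which called 755 to 3022 genes in the 5 comparisons with normal liver where the main test called 331 to 1810. The counts of male-biased and female-biased genes under these alternatives were added after seeing the data.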

Additional observations from a re-analysis of the deposited data

How the results depend on the processing

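The fall of the family sum at D3 and D7 and all 5 differences between cultured cells kept their call under every alternative tried, but with quantile normalization the fall was -1.56 at D3 and -1.62 at D7. With no filter on low values the log2 difference was -2.18 from 24 h to D3 (adjusted p = 0.0520) and 1.67 from D7 to D14 (adjusted p = 0.108), neither past the threshold. With quantile normalization, which ties the highest features of each library to one value, the sum differed by 0.22 at 24 h from normal liver, by 0.22 from 6 h to 24 h, by -0.065 from D3 to D7 and by 1.44 from D7 to D14 (adjusted p = 0.0575). With median-ratio scaling it differed by 0.022 at 6 h and by -0.089 from D3 to D7. The cause of these changes was not tested. Leaving out 1 liver gave -0.33 to 0.10 from 6 h to 24 h, -0.55 to 0.49 from D3 to D7, 1.39 to 1.98 from D7 to D14 and, for Mup12 at D14, -0.84 to 0.16.

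The number of members called against normal liver was 0 at 6 h and 0 at D14 with a 4-fold threshold, 1 at D14 with a pseudocount of 0.1, a filter at 5 FPKM or voom, 0 at D14 with median-ratio scaling, 0 at 24 h with quantile normalization, and 0 at 6 h, 24 h and D14 with no filter. Leaving out 1 liver gave 0 to 2 at 6 h, 0 to 1 at 24 h, 8 to 16 at D3, 11 to 15 at D7 and 0 to 1 at D14. Among named members, Mup7 at D3 (adjusted p = 0.0619) and Mup3 at D14 (0.0771) were not called without a filter, Mup17 at D7 was called with median-ratio scaling (0.0454) and Mup20 at D14 with quantile normalization (0.0286). In cells voom called 9 members from D3 to D14 where the main test called 4, and 2 between mouse-2 and mouse-1 where it called 1. Of the male-biased genes, 7 to 9 were lower at D3 under the alternatives, and 6 to 11 with 1 liver left out. Of the female-biased genes, 2 to 4 were higher.

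The replicate numbers did not pair the samples. Same-numbered livers had a median correlation of deviations of -0.06 over 45 pairs, 7 of them over 0.1, and 5 of 18 correlated best with their own number. In cells the median was -0.016 over 165 pairs, 33 of them over 0.1, and 4 of 33 samples correlated best with their own number. With the replicate block the counts of members were 1, 1, 15, 15 and 3 from 6 h to D14, Mup20 at D14 being gained (adjusted p = 0.0496).

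Over all genes, the main counts of calls against normal liver were 1810, 878, 647, 982 and 331 from 6 h to D14. They were 2921, 1412, 1069, 1519 and 777 with a pseudocount of 0.1 and 3022, 1389, 1082, 1556 and 755 with voom, and at D7 625 with a filter at 5 FPKM. In cells they were 1254 (D14 against D3), 2002 (mouse-1 P10 against D14), 4160 (P35 against P10), 499 (mouse-2 against mouse-1) and 3527 (clone-1 against mouse-1), against 2147, 3109, 5269, 1106 and 4671 with a pseudocount of 0.1 and 2364, 3338, 5538, 1346 and 4950 with voom. Median-ratio scaling changed the lower share of calls in cells from 49.7 to 32.8%, 68.2 to 44.8%, 26.5 to 52.3% and 26.1 to 46.8% in the comparisons D14 against D3, mouse-1 P10 against D14, P35 against P10 and clone-1 against mouse-1. Depth, at 49.3 M reads or more, limits only values near 3 reads.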

Other observations

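Gm21320, for which RefSeq gives the synonym Mup22, lies within the cluster but its symbol is outside the rule, and it was named after its values were seen. In hepatocytes it was at 1906, 1853 and 1495 FPKM, and it was listed at 0 in all 12 matured and all 12 passaged libraries. At D3 of the first culture it was at 0.9201, 1.27 and 0 FPKM. In livers it was at 1694, 2259 and 5203 FPKM in the normal group, 1911, 18.7 and 2095 at D3, 259.9, 2307 and 184 at D7 and 2639, 4812 and 2911 at D14. The single D3 liver with 18.7 FPKM was the same liver that held the lowest Mup17 level and the lowest family sum. No test was run on this gene.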
